A study of Mus musculus with 9 samples.

Results

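The genes described here encode the output machinery of photoreceptors. They were 10 named genes, chosen by symbol from the 13089 genes listed in each library's table, and all 10 were found and tested. They were Bsn, Pclo, Ctbp2, Cacna1f, Cacna2d4, Cabp4, Slc17a7, Stx3, Unc13b and Syt1. The rule itself used no measured value. The study compared poly(A) RNA of whole eyes from the inbred mouse strains A/J and BALB/c, which are albino, and C57BL/6J, which is pigmented, strains chosen because their retinas are said to degenerate at unequal speed. The mice of all 3 groups were female, 4 weeks old and of the genotype Wild Type, with no treatment named. Each strain had 3 libraries, and each library was made from pooled RNA of 5 mice, so no value belongs to a single animal. Whether the 3 libraries of a strain were made from different mice is not stated, so the p-values measure only how far the libraries scatter, and that scatter may be technical.

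Rods and cones release glutamate without pause in the dark and release less of it in light. Their terminals hold synaptic ribbons, plates of protein that tether vesicles close to the calcium channels that trigger release onto bipolar and horizontal cells. The same terminals borrow most of their fusion machinery from conventional synapses, and several of the 10 genes are also used by bipolar, amacrine and ganglion cells. In RNA of a whole eye, fewer cells of a type cannot be told apart from less RNA per cell.

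All 10 genes were expressed in all 9 libraries, and none differed between strains past the threshold. RPKM, a read count divided by transcript length and by the mapped reads of the library, allows levels to be compared between genes. The mean over the 9 libraries ran from 278.5 RPKM for Slc17a7 to 2.81 RPKM for Bsn. Slc17a7 lay at percentile 99.1 of all listed genes and Bsn at percentile 17. With an adjusted p under 0.05 as the rule for a call (limma, 12920 genes tested), 0 of 10 genes were called between A/J and C57BL/6J, where 2.69% of all tested genes were called. The count was also 0 of 10 between BALB/c and C57BL/6J, where 3.09% of all genes were called, and 0 of 10 between A/J and BALB/c, where 2.48% were called. In the test of any difference among the strains it was 0 of 10, against 4.47% of all genes, and 0 of 10 at an unadjusted p under 0.05, against 20.3%. At an unadjusted p under 0.05, limma gave 1, 2 and 1 of the 10 genes in the 3 comparisons, in the same order, against 17.5%, 13.8% and 20.9% of all genes. What did vary were the libraries: A/J 3 differed from A/J 1 and A/J 2, and C57BL/6J 3 was above the other C57BL/6J libraries for 9 of the 10 genes in RPKM as deposited.

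These differences between libraries ran through the whole transcriptome. On the first principal component of all genes, which held 49.1% of the variance, the scores were -42.4 for A/J 1, -51.4 for A/J 2 and 56.4 for C57BL/6J 3, while the other 6 libraries scored between -7.8 and 14.8. The deviation of a gene from its own mean followed the gene's GC content, the share of G and C in its transcript. Spearman's rho over all genes was -0.65 in A/J 1 and -0.72 in A/J 2, and it was 0.46 in A/J 3. It ran from 0.1 to 0.56 in BALB/c and from -0.3 to 0.39 in C57BL/6J. Genes are not independent replicates, so these values describe the libraries and carry no p. Rod markers, from rhodopsin to recoverin, were found for 16 of 18 listed genes, none at 0 in any library, and their summed level ran from 16970 to 17140 RPKM across A/J libraries, from 18760 to 19390 across BALB/c libraries and from 18620 to 21750 across C57BL/6J libraries. The direction of calls over all genes also turned on the scaling. For BALB/c against C57BL/6J 250 genes were higher and 149 lower, against 156 and 225 in values as deposited and 168 and 208 with scaling to rod markers. For A/J against C57BL/6J 139 were higher and 209 lower, against 250 and 174 with scaling to rod markers. For A/J against BALB/c 74 were higher and 246 lower, against 95 and 187 in values as deposited and 1695 and 245 with scaling to rod markers. The part of GC content and of rod RNA in the results was not tested beyond the corrected values given beside them.

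Sequence shows how far the 10 genes differ in GC content. The transcripts ran from 44.8% GC for Unc13b to 59.8% for Bsn. The pairs shown do similar jobs and lie at opposite ends of that range: Bsn and Pclo are both giant scaffold genes, and Slc17a7 and Syt1 are both genes of the synaptic vesicle. Each line is a stretch of 90 coding bases whose GC content is close to that of the whole transcript, from the GENCODE annotation, written 5′ to 3′ with G and C in capitals. The Slc17a7 stretch holds coding bases 145 to 234 with 53 G or C, and the Syt1 stretch holds coding bases 94 to 183 with 41. The Bsn stretch holds coding bases 208 to 297 with 54, and the Pclo stretch holds coding bases 343 to 432 with 41.
Slc17a7: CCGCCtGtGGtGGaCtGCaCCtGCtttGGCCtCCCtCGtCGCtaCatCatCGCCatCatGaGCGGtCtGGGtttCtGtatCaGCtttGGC
Syt1: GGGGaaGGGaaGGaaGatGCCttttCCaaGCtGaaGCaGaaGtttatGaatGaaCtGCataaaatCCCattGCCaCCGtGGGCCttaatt
Bsn: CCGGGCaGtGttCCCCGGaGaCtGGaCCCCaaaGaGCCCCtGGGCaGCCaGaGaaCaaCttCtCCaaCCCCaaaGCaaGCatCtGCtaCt
Pclo: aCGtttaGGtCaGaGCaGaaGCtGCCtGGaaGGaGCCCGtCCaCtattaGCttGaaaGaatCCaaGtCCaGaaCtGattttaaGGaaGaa

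Bsn and Pclo encode bassoon and piccolo, large proteins of the active zone. Bassoon anchors the ribbon to the presynaptic membrane of photoreceptors. Bsn measured 1.47, 1.53 and 3.13 RPKM across A/J libraries, 2.66, 3.09 and 2.65 across BALB/c libraries, and 2.39, 3.07 and 5.3 across C57BL/6J libraries. A/J 1 and A/J 2 were the lowest of the 9 libraries, while A/J 3 lay above all 3 BALB/c libraries in RPKM, so A/J overlapped both other strains. The A/J mean was 2.04 ± 0.942 RPKM (SD, n = 3), the BALB/c mean 2.8 ± 0.251 and the C57BL/6J mean 3.59 ± 1.52. The log2 difference of A/J from C57BL/6J was -0.59 (SE 0.274, 95% interval -1.21 to 0.03, adjusted p = 0.299), and that of A/J from BALB/c was -0.49 (SE 0.274, interval -1.12 to 0.13, adjusted p = 0.306). All log2 differences given here are of scaled RPKM plus 0.5, a scale that understates the change of low genes such as these.

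The GC-rich Bsn is among the genes whose call turned on library A/J 3. Without A/J 3 the Bsn difference was -0.86 from C57BL/6J (adjusted p = 0.032) and -0.77 from BALB/c (adjusted p = 0.035), in fits that called 28.2% and 34.6% of all genes. Without C57BL/6J 3 instead, it was -0.36 from C57BL/6J (adjusted p = 0.62). With A/J 3 kept and each library's trend with GC content removed, the differences were -0.26 (adjusted p = 0.35) and -0.12 (adjusted p = 0.72). Bsn, like the other 9 genes, was not called when that trend was removed and A/J 3 left out, in fits that called 10.1% and 10.2% of all genes.

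Pclo, at 45.4% GC, had another pattern. It measured 2.94, 2.9 and 2.84 RPKM across A/J libraries, 2.6, 2.44 and 2.29 across BALB/c libraries, and 3.06, 2.97 and 6.45 across C57BL/6J libraries. BALB/c was the lowest strain with no overlap of its libraries with either other strain, and C57BL/6J 3 was far above the next highest library. The strain means were 2.89 ± 0.0503, 2.44 ± 0.155 and 4.16 ± 1.98 RPKM (SD, n = 3). The difference of BALB/c from C57BL/6J was -0.43 (SE 0.213, interval -0.91 to 0.05, adjusted p = 0.434) and that of A/J from BALB/c was 0.15 (SE 0.213, interval -0.33 to 0.63, adjusted p = 0.668). For A/J against C57BL/6J it was -0.28 (interval -0.76 to 0.20). Without C57BL/6J 3 the differences from C57BL/6J were -0.16 for BALB/c and -0.0089 for A/J, and with the GC trend removed that of A/J from BALB/c was -0.07. The ratio of Bsn to Pclo was 0.5 in A/J 1 and 0.528 in A/J 2, and it ran from 0.781 to 1.27 in the other 7 libraries. The labels do not say whether reads were counted by strand, and 4.12% of the exonic bases of Pclo lie opposite 2 annotated antisense genes, so reads of those genes may be included.

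Ctbp2 encodes both the widely expressed corepressor CtBP2 and, from an internal start, RIBEYE, the protein that builds the ribbon itself. The tables give a single Ctbp2 value, so these products cannot be told apart. In the GENCODE annotation transcript Ctbp2-201 codes for 445 residues, and Ctbp2-214, which begins further into the gene, codes for 988. Promoter windows of 300 bases, from 250 before to 50 after a start site, were taken from RefSeq (GRCm38.p6) and were found for 8 of the 10 genes. The Ctbp2 window shown lies at chr7:133015198-133015497 on the minus strand, and its start site is 1 base from that of Ctbp2-214. It is shown because it is the start that sets the ribbon's product apart from the corepressor. The capitals mark GGATTA, the reverse complement of TAATCC, the core motif bound by photoreceptor homeodomain factors, beginning at position -121 from the start site.
Ctbp2: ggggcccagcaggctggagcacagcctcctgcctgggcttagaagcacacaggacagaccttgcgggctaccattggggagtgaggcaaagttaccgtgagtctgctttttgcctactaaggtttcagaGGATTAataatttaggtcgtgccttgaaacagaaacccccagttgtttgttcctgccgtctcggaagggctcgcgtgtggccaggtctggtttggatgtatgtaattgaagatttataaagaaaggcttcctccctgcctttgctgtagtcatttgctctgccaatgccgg
TAATCC was searched on both strands of all windows and was present in 2320 of 32851 windows (7.06%). Among the genes described here it was present in 2 of 10 windows, this one and that of Stx3. A match is a description of the letters and not a binding site.

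Ctbp2 measured 39.59, 41.03 and 47.95 RPKM across A/J libraries, 37.66, 39.56 and 39.56 across BALB/c libraries, and 42.94, 43.66 and 76.3 across C57BL/6J libraries. Of the 9 libraries, 8 lay within 37.66 to 47.95 RPKM, and C57BL/6J 3 stood apart. The strain means were 42.9 ± 4.47 RPKM (SD, n = 3), 38.9 ± 1.10 and 54.3 ± 19.1. Ctbp2 had the largest adjusted p of the 10 genes in the test across strains (0.546). Its difference of A/J from C57BL/6J was -0.18 (SE 0.18, interval -0.59 to 0.23) and became 0.03 without C57BL/6J 3. Of the exonic bases of Ctbp2, 5.05% overlap those of Fgfr2 on the same strand.

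**Figure D1:**
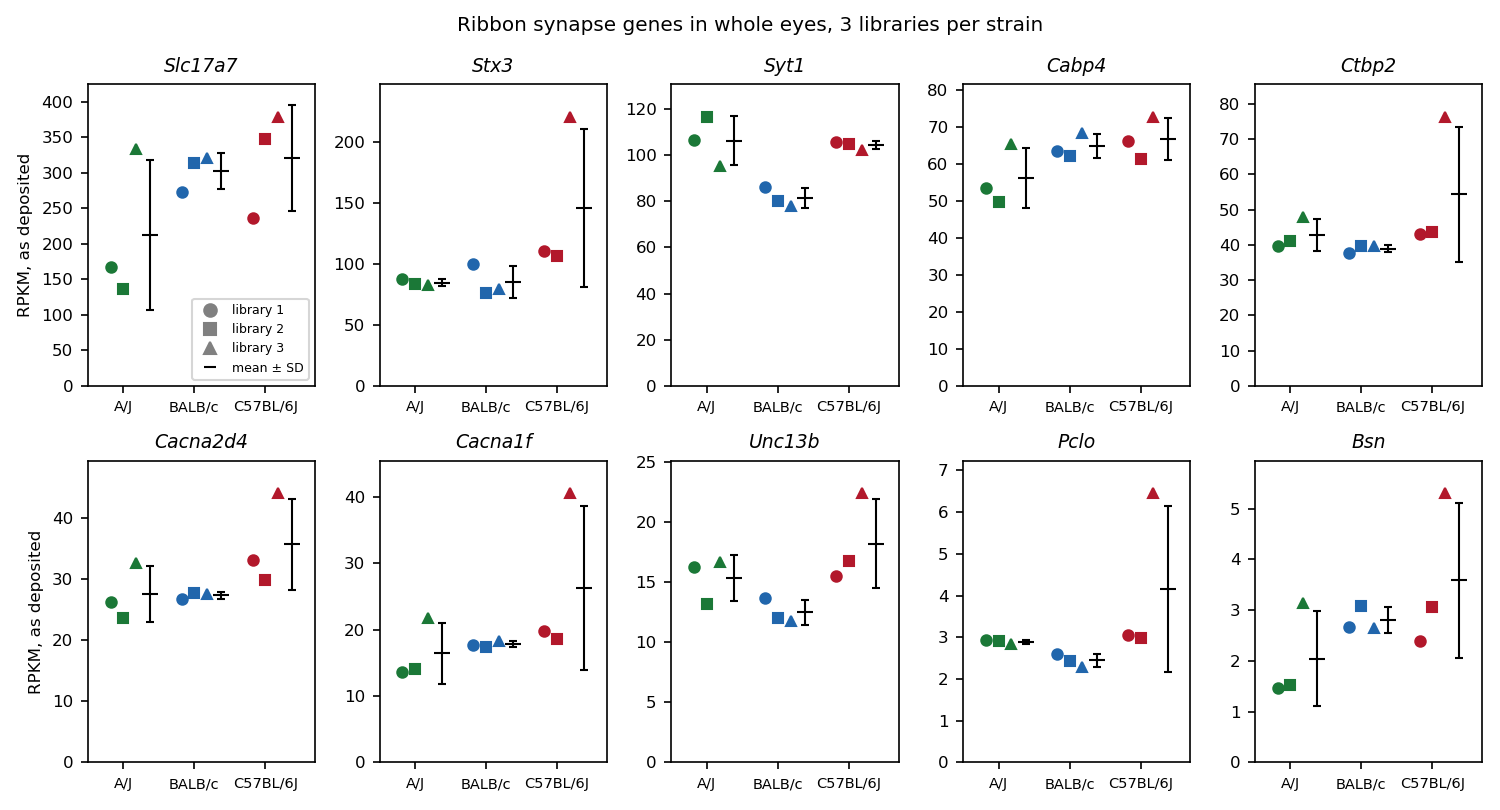
RPKM of the 10 ribbon synapse genes in each of 9 whole eye libraries, coloured by strain, with a bar at each strain's mean of 3 libraries. Slc17a7 is the highest gene and Bsn and Pclo are the lowest; C57BL/6J 3 is the highest point for every gene but Syt1, and A/J 1 and A/J 2 are the lowest for Bsn, Cacna1f, Cacna2d4, Cabp4 and Slc17a7.

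Cacna1f, Cacna2d4 and Cabp4 encode the parts of the calcium channel complex that opens in the dark: the pore Cav1.4, its alpha2delta-4 subunit, and a calmodulin-like protein that shifts the channel's activation. Mutations of each are known from inherited retinal disease. Cacna1f measured 13.58, 14.03 and 21.72 RPKM across A/J libraries, 17.69, 17.45 and 18.35 across BALB/c libraries, and 19.77, 18.59 and 40.52 across C57BL/6J libraries. A/J 1 and A/J 2 were again the lowest libraries and C57BL/6J 3 the highest, far above C57BL/6J 1 and C57BL/6J 2. The strain means were 16.4 ± 4.58, 17.8 ± 0.466 and 26.3 ± 12.3 RPKM (SD, n = 3). For Cacna1f, A/J differed from C57BL/6J by -0.49 (SE 0.257, interval -1.07 to 0.09, adjusted p = 0.321), and by -0.2 without C57BL/6J 3.

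Cacna1f was called in A/J only after both A/J 3 and C57BL/6J 3 were left out. The difference of A/J was then -0.40 from C57BL/6J (adjusted p = 0.011) and -0.41 from BALB/c (adjusted p = 0.0028), where 39.4% and 60.2% of all genes were called. With the GC trend also removed the differences were -0.27 (adjusted p = 0.038) and -0.22 (adjusted p = 0.036), and 22.7% and 39% of all genes were called.

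Cacna2d4 measured 26.33, 23.67 and 32.6 RPKM across A/J libraries, 26.71, 27.77 and 27.57 across BALB/c libraries, and 33.08, 29.95 and 44.08 across C57BL/6J libraries. All 3 C57BL/6J libraries were above all 3 BALB/c libraries, while A/J overlapped both strains. Their means were 35.7 ± 7.42 and 27.4 ± 0.563 RPKM, and the A/J mean was 27.5 ± 4.59 (SD, n = 3). The difference of BALB/c from C57BL/6J was -0.18 (SE 0.148, interval -0.52 to 0.15, adjusted p = 0.685), and that of A/J from C57BL/6J was -0.25 (SE 0.148, interval -0.59 to 0.08, adjusted p = 0.344). Without C57BL/6J 3 they were -0.09 and -0.15. Cacna2d4 was above Cacna1f in RPKM in all 9 libraries. The ratio of Cacna1f to Cacna2d4 was 0.919 in C57BL/6J 3 and 0.516 to 0.666 elsewhere.

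Cabp4 measured 53.53, 49.81 and 65.26 RPKM across A/J libraries, 63.57, 62.16 and 68.36 across BALB/c libraries, and 66.21, 61.36 and 72.7 across C57BL/6J libraries. Cabp4 had the smallest ratio of highest to lowest library among the 10 genes, 1.46. Once the libraries were scaled to each other all 3 BALB/c libraries (66.74 to 72.27 scaled RPKM) lay above both the A/J libraries (50.65 to 64.81) and the C57BL/6J libraries (61.22 to 63.5). The difference of A/J from BALB/c was -0.28 (SE 0.126, interval -0.56 to 0.01, adjusted p = 0.244), and that of BALB/c from C57BL/6J was 0.14 (SE 0.126, interval -0.15 to 0.42, adjusted p = 0.743) but -0.04 in values as deposited. Without A/J 3 the difference of A/J from BALB/c was -0.37 and was called (adjusted p = 0.034), as were 34.6% of all genes. With the GC trend removed from all 9 libraries this difference was -0.17 (adjusted p = 0.4). Part of Cabp4, 3.72% of its exonic bases, lies opposite Gpr152.

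Slc17a7 encodes VGLUT1, the transporter that fills photoreceptor vesicles with glutamate. It measured 166.9, 136.5 and 333.7 RPKM across A/J libraries, 273.1, 313.6 and 320.6 across BALB/c libraries, and 236.3, 347 and 378.9 across C57BL/6J libraries. A/J 1 and A/J 2 were the lowest of the 9 libraries, and A/J 3 was above all 3 BALB/c libraries in RPKM. The A/J mean was 212 ± 106 RPKM (SD, n = 3), against 302 ± 25.7 in BALB/c and 321 ± 74.9 in C57BL/6J. The difference of A/J from BALB/c was -0.69 (SE 0.304, interval -1.37 to 0.00, unadjusted p = 0.0506, adjusted p = 0.239) and that from C57BL/6J was -0.57 (SE 0.304, interval -1.25 to 0.12, adjusted p = 0.326). BALB/c differed from C57BL/6J by 0.12 (interval -0.57 to 0.81), and by -0.06 in values as deposited.

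The Slc17a7 difference depended most on which A/J libraries were used. Without A/J 3 it was -1.05 from BALB/c (adjusted p = 0.013) and -0.93 from C57BL/6J (adjusted p = 0.022), where 34.6% and 28.2% of all genes were called. With A/J 3 as the only A/J library, which is then assumed to vary like the libraries of the other strains, it was 0.03 from BALB/c and 0.15 from C57BL/6J, and was not called. Removing the GC trend brought the differences over all 9 libraries to -0.35 (adjusted p = 0.33) and -0.27 (adjusted p = 0.39). With the GC trend removed and both A/J 3 and C57BL/6J 3 left out they were -0.51 (adjusted p = 0.01) and -0.45 (adjusted p = 0.041). There 39% and 22.7% of all genes were called. With the trend kept and the same libraries left out the differences were -1.05 and -0.86 (adjusted p = 0.00061 and 0.0069). In that case 60.2% and 39.4% of all genes were called.

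Syt1 encodes synaptotagmin 1, the calcium sensor that triggers vesicle fusion, and is used by many neurons. It measured 106.5, 116.5 and 95.31 RPKM across A/J libraries, 86.23, 79.84 and 78.03 across BALB/c libraries, and 105.5, 104.9 and 102.1 across C57BL/6J libraries. Every BALB/c library was below all 6 others in RPKM as deposited; once scaled, BALB/c (82.49 to 91.14) still lay below A/J (94.65 to 118.5) but overlapped C57BL/6J (88.2 to 104.7). The difference of A/J from BALB/c was 0.31 (SE 0.133, interval 0.01 to 0.61, unadjusted p = 0.0451, adjusted p = 0.232). The strain means were 106 ± 10.6, 81.4 ± 4.31 and 104 ± 1.81 RPKM (SD, n = 3), and the difference of BALB/c from C57BL/6J was -0.18 (SE 0.133, interval -0.48 to 0.12).

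Syt1 was the only one of the 10 genes that was called when libraries were scaled to the rod markers instead of to all genes. The difference of A/J from BALB/c was then 0.53 (adjusted p = 0.029), but this scaling moved the median of all genes to 0.19 and called 15% of them. Without A/J 3 it was 0.40 (adjusted p = 0.042), where 34.6% of all genes were called. With the GC trend removed from all 9 libraries the difference was 0.10 (adjusted p = 0.64). The ratio of Slc17a7 to Syt1, genes at 58.5% and 45.8% GC, was 1.57 in A/J 1, 1.17 in A/J 2 and 3.5 in A/J 3. It ran from 3.17 to 4.11 in BALB/c and from 2.24 to 3.71 in C57BL/6J. A/J 1 and A/J 2 were thus the lowest for this ratio, as for that of Bsn to Pclo.

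Stx3 encodes syntaxin 3, which takes the place of syntaxin 1 in the fusion complex of ribbon synapses. It measured 87.91, 83.75 and 82.88 RPKM across A/J libraries, 100, 76.43 and 79.44 across BALB/c libraries, and 111.1, 106.6 and 221.1 across C57BL/6J libraries. All 3 C57BL/6J libraries were above the 6 libraries of the albino strains, and C57BL/6J 3 was far above the others. A/J and BALB/c had nearly the same mean, 84.8 ± 2.69 and 85.3 ± 12.8 RPKM, against 146 ± 64.8 in C57BL/6J (SD, n = 3). The difference from C57BL/6J was -0.59 in A/J (SE 0.228, interval -1.1 to -0.07, unadjusted p = 0.0296, adjusted p = 0.249) and -0.52 in BALB/c (SE 0.228, interval -1.04 to -0.01, unadjusted p = 0.0477, adjusted p = 0.354). Without C57BL/6J 3 these were -0.31 (adjusted p = 0.41) and -0.25 (adjusted p = 0.5). Stx3 had the smallest adjusted p of the 10 genes across the 3 strains (0.255). With the GC trend removed and A/J 3 and C57BL/6J 3 left out, the A/J difference was -0.45 and was called (adjusted p = 0.02). There 22.7% of all genes were called. The BALB/c difference was then -0.19 (adjusted p = 0.25).

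Unc13b encodes Munc13-2, which primes vesicles for release and is the member of its family found at photoreceptor ribbons. It measured 16.29, 13.18 and 16.66 RPKM across A/J libraries, 13.67, 12.01 and 11.8 across BALB/c libraries, and 15.48, 16.75 and 22.39 across C57BL/6J libraries. The BALB/c libraries were below all 3 C57BL/6J libraries and overlapped those of A/J. The strain means were 15.4 ± 1.91, 12.5 ± 1.02 and 18.2 ± 3.68 RPKM (SD, n = 3). The difference of BALB/c from C57BL/6J was -0.34 (SE 0.148, interval -0.67 to 0.00, unadjusted p = 0.0476, adjusted p = 0.354), and that of A/J from BALB/c was 0.22 (SE 0.148, interval -0.12 to 0.55, adjusted p = 0.376). The latter turned to -0.03 with the GC trend removed and to -0.20 with A/J 3 left out as well. A/J differed from C57BL/6J by -0.12 (interval -0.45 to 0.21), and -0.02 without C57BL/6J 3.

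**Figure D2:**
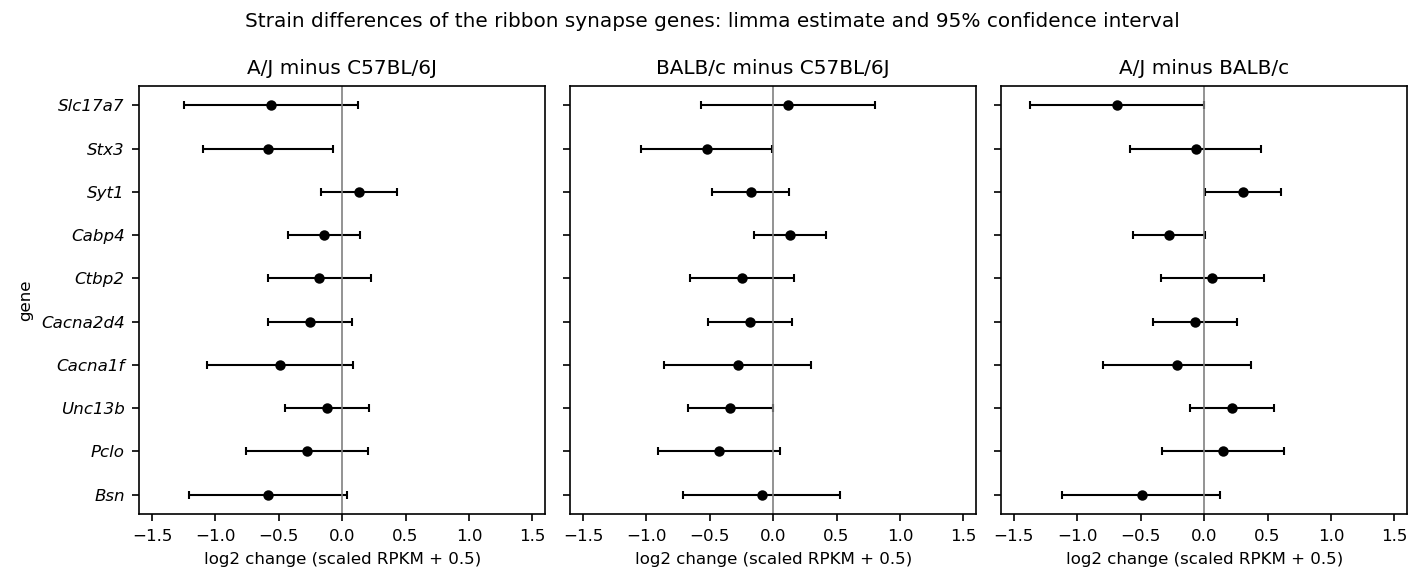
Log2 difference (scaled RPKM plus 0.5) of each gene in the 3 comparisons of strains, with its 95% interval from limma (n = 3 libraries per strain). Most points lie left of 0 in both comparisons with C57BL/6J. The intervals that miss 0 are those of Stx3 in both, of Unc13b in BALB/c and of Syt1 between A/J and BALB/c.

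Side by side, 9 of the 10 genes had a negative difference of A/J from C57BL/6J and 8 of BALB/c from C57BL/6J; these comparisons share the C57BL/6J libraries. The median difference was -0.27 for A/J and -0.21 for BALB/c, against -0.01 over all genes in both. For A/J against BALB/c, 4 differences were positive and 6 negative, with a median of -0.07 against -0.01 over all genes. Without C57BL/6J 3 the A/J differences were negative for 8 genes with a median of -0.15, and the BALB/c differences were negative for 6 with a median of -0.06. The 9 negative signs for A/J held in values as deposited, after quantile normalization and with scaling to rod markers, while the 8 for BALB/c became 10, 9 and 9, and the 4 positive signs between A/J and BALB/c became 5, 4 and 7. In scaled values, libraries did not overlap for 1 gene between A/J and C57BL/6J (Stx3, lower) and for 0 in the other direction, where 7.95% of all genes were lower and 8.44% higher without overlap. Between BALB/c and C57BL/6J they did not overlap for 4 lower genes (Pclo, Cacna2d4, Stx3, Unc13b) and 1 higher gene (Cabp4), against 11.7% and 13.4% of all genes. Between A/J and BALB/c they did not overlap for 2 higher genes (Pclo, Syt1) and 1 lower gene (Cabp4), against 15.6% and 13.6% of all genes. In RPKM as deposited the counts were others. In A/J against C57BL/6J 2 genes were lower without overlap (Pclo, Stx3) and 0 higher, against 11% and 5.26% of all genes. In BALB/c against C57BL/6J 7 were lower (the 4 above with Ctbp2, Cacna1f and Syt1) and 0 higher, against 27.4% and 6%. In A/J against BALB/c 3 were higher (Ctbp2, Pclo, Syt1) and 0 lower, against 23.3% and 9.78%.

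The number of the 10 genes called across strains changed with the libraries in the fit. Without A/J 3 the test of any difference called 2 of 10 genes (Bsn and Slc17a7), against 32.8% of all genes. With both A/J 3 and C57BL/6J 3 left out it called 5 of 10, against 61.6%, and 4 of 10 with the GC trend removed as well, against 43.6%. Each of these shares was below that of all genes.

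Library C57BL/6J 3 also moved the signs. In it, 9 of the 10 genes were above their own mean on the log2 scale, with a median deviation of 0.46, and only Syt1 was below. In A/J 1 and A/J 2, 2 and 1 of the 10 were above their mean, and in A/J 3, 7 were. Over the 10 genes Spearman's rho between deviation and GC content was -0.83 in A/J 1, -0.72 in A/J 2 and 0.62 in A/J 3. It was 0.38, 0.81 and 0.83 in BALB/c 1, 2 and 3, and it was -0.53, 0.18 and 0.07 in C57BL/6J 1, 2 and 3. The deviations of the 10 genes in C57BL/6J 3 were therefore ordered little by GC content, and those in A/J strongly. In C57BL/6J 3 the sum of RPKM times transcript length also came to 117.4% of the total that RPKM gives, against 99.4% to 101.8% in the other 8 libraries. Markers of other tissues of the eye also varied between libraries. The 13 lens markers found of 14 had a median difference of 0.66 in BALB/c from C57BL/6J, the lowest being 0.09, and of 0.26 in A/J from C57BL/6J. Of these 13 markers 0 were called in BALB/c against C57BL/6J (all genes: 3.09%). In A/J against C57BL/6J 1 was called (all genes: 2.69%), and it was lower (Gluld1, log2 -1.92). The sum of the lens markers was 126400 to 145300 RPKM across A/J libraries, 157800 to 171600 across BALB/c libraries and 104800 to 134400 across C57BL/6J libraries, lowest in C57BL/6J 3. The sum of 6 optic nerve oligodendrocyte markers was 41.47 RPKM in C57BL/6J 3 and 145.8 to 1032 in the other 8 libraries, with a median difference of 1.89 in A/J and 0.84 in BALB/c from C57BL/6J. None of these 6 markers was called in any comparison. Their sum in A/J was 1032 RPKM in A/J 1, 335.3 in A/J 2 and 262.7 in A/J 3. No marker of either list was at 0 in any library, and the part of these tissues and of that excess in the results was not tested.

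**Figure D3:**
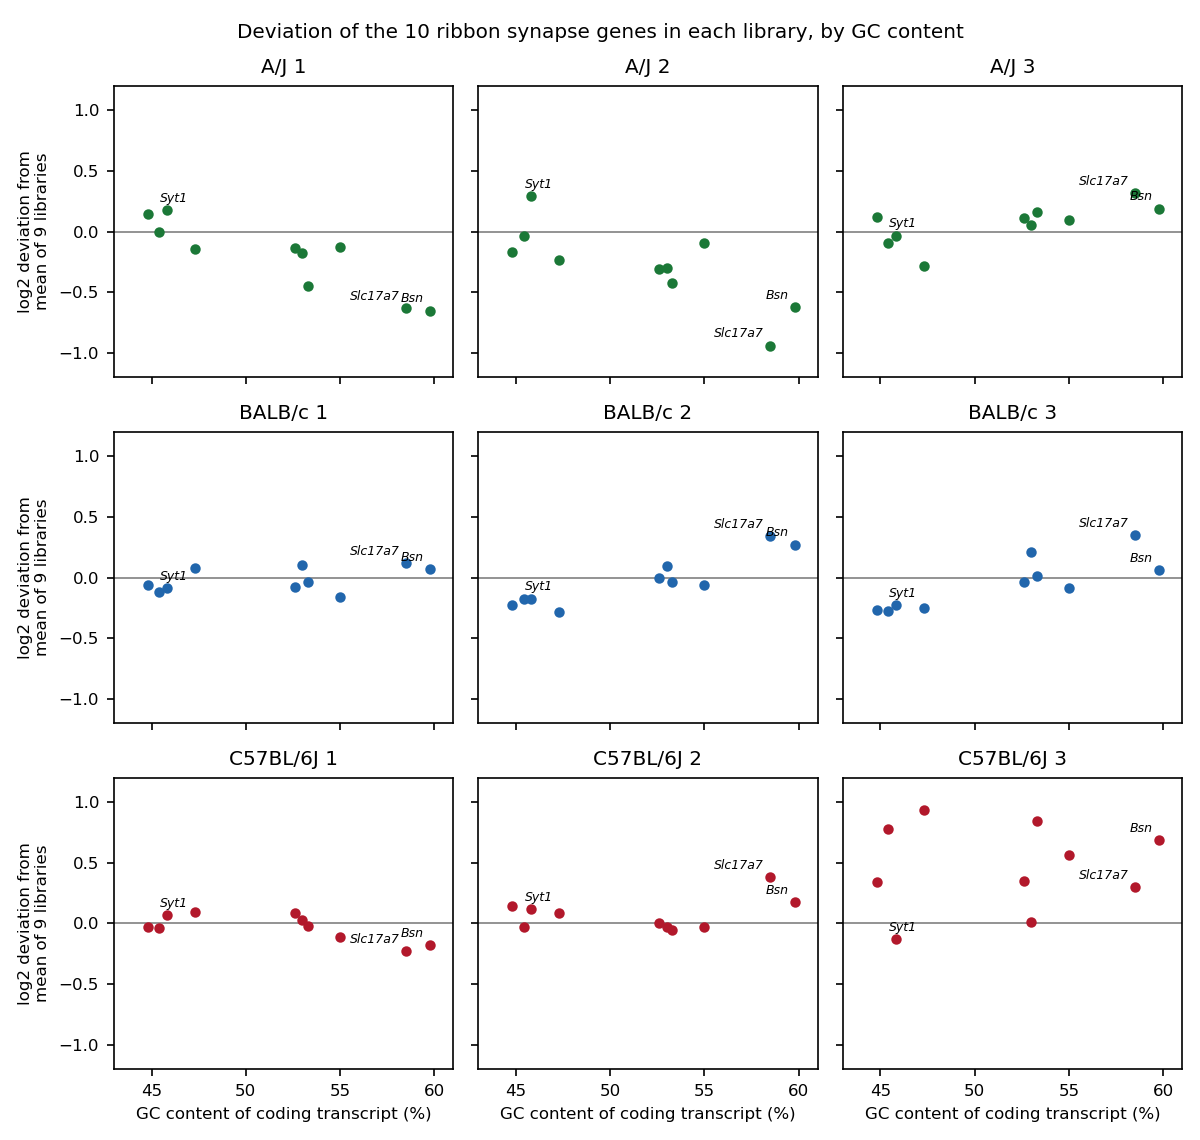
Log2 deviation of each of the 10 genes from its own mean over 9 libraries, against the GC content of its transcript (percent), in 1 panel per library. The points slope down in A/J 1 and A/J 2, slope up in A/J 3, BALB/c 2 and BALB/c 3, and lie mostly above 0 in C57BL/6J 3.

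The order of the levels within a library was stable for most neighbours. From high to low it was Slc17a7, Stx3, Syt1, Cabp4, Ctbp2, Cacna2d4, Cacna1f, Unc13b, Pclo and Bsn, with means of 278.5, 105.5, 97.2, 62.6, 45.4, 30.2, 20.2, 15.4, 3.17 and 2.81 RPKM. The ranges over the 9 libraries did not overlap between Syt1 and Cabp4 or between Unc13b and Pclo, and overlapped for every other pair of neighbours. Neighbours kept this order in 8 or 9 of 9 libraries except for 2 pairs that did not differ beyond their spread. Stx3 was above Syt1 in 5 of 9 libraries, and Pclo was above Bsn in 4 of 9. The glutamate transporter gene was thus the most abundant per length and the giant scaffold genes were the least, with the transcripts of Bsn and Pclo also the longest of the 10 at 15938 and 20084 bases.

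Across libraries the 10 genes did not form a single group. Over 45 pairs the Pearson correlation of log2 levels had a median of 0.56, and it ran from -0.92 for Cabp4 and Syt1 to 0.93 for Cacna1f and Cacna2d4. It was positive for 35 pairs. Without C57BL/6J 3 the median was 0.17 and 29 pairs were positive. Bsn and Slc17a7, both rich in GC, had r = 0.89 over 9 libraries and 0.97 over the 8, whereas Pclo and Ctbp2 went from 0.91 to 0.00. These values describe 9 libraries of which some share strain and may share pool and library quality, and they carry no p.

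The genes whose profile over the 9 libraries was most like the mean profile of the 10 were Crocc (Pearson r = 0.995), Adcy3 (0.99), Slc25a25 (0.989), Arrb1 (0.989) and Tsc2 (0.989), of 11611 genes with a mean of at least 2 RPKM. Crocc, which encodes rootletin of the ciliary rootlet, measured 13.6, 12 and 31.7 RPKM across A/J libraries, 21, 22.1 and 21.5 across BALB/c libraries, and 21.3, 29.2 and 99.3 across C57BL/6J libraries. Like the other 4, it was highest in C57BL/6J 3 and lowest in A/J 2.

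Other genes of the synapse were read from lists chosen for their roles: scaffolds, calcium channel and calcium handling genes, fusion genes, vesicle proteins and glutamate transporters, endocytosis genes, and partners of the photoreceptor in the bipolar cell. Of 107 listed genes, 100 were found and tested. In A/J against C57BL/6J 1 was called higher and 2 lower, or 3% of the 100 (all genes: 1.08% higher and 1.62% lower), with a median difference of -0.17 against -0.01 over all genes. In BALB/c against C57BL/6J 2 were higher and 2 lower, or 4% (all genes: 1.93% and 1.15%), with a median of -0.08. In A/J against BALB/c 0 were higher and 1 was lower, or 1% (all genes: 0.573% and 1.9%), with a median of -0.11. No list had more than 1 gene called in a direction in any comparison. Slc17a8 is among the lower calls in both comparisons with C57BL/6J, and it passed the minimum level only through the C57BL/6J libraries, where it is high.

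**Figure D4:**
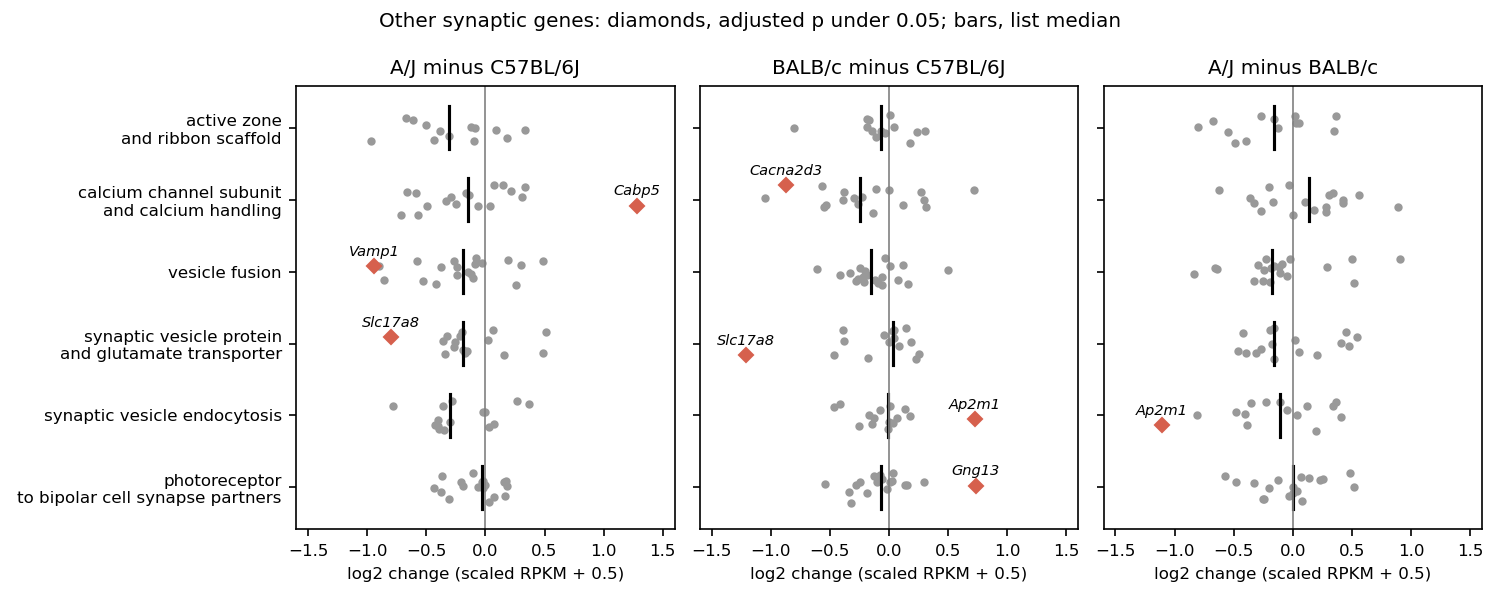
Log2 differences (scaled RPKM plus 0.5) of the 100 other synaptic genes by list in the 3 comparisons of strains, with genes called at an adjusted p under 0.05 marked apart. Of 100 genes, 3, 4 and 1 were called in A/J against C57BL/6J, BALB/c against C57BL/6J and A/J against BALB/c. Both counts against C57BL/6J include Slc17a8, which passed the minimum level only through the C57BL/6J libraries.

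The genes called in at least 1 comparison were 6 of the 100. Cabp5, a relative of Cabp4 found in bipolar cells, measured 69.9, 79.9 and 48.2 RPKM across A/J libraries, 42.1, 39.7 and 43.5 across BALB/c libraries, and 35.3, 26 and 25.2 across C57BL/6J libraries. It was higher in every A/J library than in every other library, by 1.28 over C57BL/6J (SE 0.22, adjusted p = 0.0169). The call was lost without A/J 1, without A/J 2 or without C57BL/6J 2, with adjusted p up to 0.095. A fit of A/J and C57BL/6J alone lost it too (0.11), as did A/J 3 as the sole A/J library (0.31). The summed level of 9 bipolar cell markers, Cabp5 included, was 338.7 to 416.2 RPKM in A/J and 298.6 to 385.8 in C57BL/6J. Since Cabp5 is part of that sum, the sum is no separate measure of bipolar cells. Of these 9 markers 1 was called higher in A/J than in C57BL/6J (Cabp5) and 1 lower, against 1.08% and 1.62% of all genes. The lower marker was Prkca (log2 -1.21, adjusted p = 0.00046). The part of bipolar cells in the Cabp5 result was not tested.

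Cacna2d3, an alpha2delta subunit of calcium channels, measured 4.74, 4.27 and 5 RPKM across BALB/c libraries and 12.5, 9.4 and 8.84 across C57BL/6J libraries. In A/J it measured 6.46, 6.83 and 5.26 RPKM, also below every C57BL/6J library, without a call (log2 -0.57, adjusted p = 0.17). It was lower in BALB/c by 0.88 (log2 -0.88, SE 0.181, adjusted p = 0.0354), and the call was kept in 2 of the 9 fits that each left out 1 library, namely those without A/J 3 or without C57BL/6J 3. Of the other 7, the highest adjusted p was 0.18, and after quantile normalization it was 0.056. Vamp1, a synaptobrevin of the fusion complex, measured 8.89, 8.69 and 12.3 RPKM across A/J libraries and 18.3, 20.2 and 24.6 across C57BL/6J libraries. In BALB/c it measured 12.7, 10.9 and 12.2 RPKM, also below every C57BL/6J library, without a call (log2 -0.61, adjusted p = 0.0781). It was lower in A/J (log2 -0.94, SE 0.154, adjusted p = 0.0117), without overlap, and lost the call when A/J 1, A/J 2 or C57BL/6J 2 was dropped, with adjusted p up to 0.075. A fit of A/J and C57BL/6J alone (0.094) and one with A/J 3 as the sole A/J library (0.23) lost it as well.

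Slc17a8 encodes VGLUT3, a glutamate transporter of certain amacrine cells and the low-level relative of Slc17a7 in the lists. It measured 0.52, 0.82 and 0.66 RPKM across A/J libraries, 0.46, 0.29 and 0.33 across BALB/c libraries, and 1.8, 1.29 and 1.88 across C57BL/6J libraries. It was lower in both albino strains than in any C57BL/6J library. In BALB/c the difference was -1.21 (adjusted p = 0.00336) and in A/J it was -0.80 (SE 0.158, adjusted p = 0.0293). Slc17a8 reached the minimum level for testing only through the 3 C57BL/6J libraries, where it is high, so it could not be tested without any of them. Of the 6 fits that left out an A/J or a BALB/c library, all called the BALB/c difference and 2 called that of A/J. All 6 kept the 3 C57BL/6J libraries that let Slc17a8 pass, so they lend these calls no support. The 4 fits that lost the A/J call were those without A/J 1 or without a BALB/c library, with adjusted p up to 0.15. It was also lost with a replicate block (adjusted p = 0.056), after quantile normalization (0.065), in a fit of A/J and C57BL/6J alone (0.14) and with A/J 3 as the sole A/J library (0.21). The summed level of 12 amacrine and ganglion cell markers ran from 436.9 to 491.3 RPKM across A/J libraries, from 482.2 to 489.3 across BALB/c libraries and from 597.5 to 618.3 across C57BL/6J libraries. The markers of that sum did not all go the same way. Against C57BL/6J, 1 of the 12 was called higher in A/J (Gad2, log2 0.71, adjusted p = 0.0308). The markers called lower in A/J were 2, Nefl and Nefm, and all genes had 1.08% higher and 1.62% lower. In BALB/c 0 were called higher and 1 lower (Nefl), against 1.93% and 1.15% of all genes. The part of these cells in the Slc17a8 result was not tested.

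Ap2m1, a subunit of the adaptor that retrieves vesicles by endocytosis, measured 13.7, 12.8 and 17.5 RPKM across A/J libraries, 28.4, 31 and 32.2 across BALB/c libraries, and 18.2, 20.3 and 24 across C57BL/6J libraries. It was highest in BALB/c, with no overlap. The difference of A/J from BALB/c was -1.11 (adjusted p = 0.00414) and was called in all 9 fits that left out 1 library, while that of BALB/c from C57BL/6J was 0.72 (SE 0.143, adjusted p = 0.0289) and was called in 3 of 9, those that dropped A/J 2, A/J 3 or C57BL/6J 3. The call of BALB/c from C57BL/6J was also lost in values as deposited (adjusted p = 0.12) and with scaling to rod markers (0.11), and that of A/J from BALB/c with A/J 3 as the only A/J library (0.12). Of its 31-base words, 32.4% also occur at other annotated loci, so the level of Ap2m1 is uncertain. Gng13, a G protein subunit of ON bipolar cells, measured 105, 102 and 103 RPKM across BALB/c libraries and 67.7, 71.9 and 71.5 across C57BL/6J libraries. In A/J it measured 81.3, 66.1 and 71.8 RPKM, also below every BALB/c library, without a call (log2 -0.57 from BALB/c, adjusted p = 0.055). It was higher in BALB/c than in C57BL/6J by 0.73 (SE 0.128, adjusted p = 0.0151). The call was lost without C57BL/6J 1 or any BALB/c library, with adjusted p up to 0.1, and was lost with the GC trend removed (adjusted p = 0.11). Gng13 shares 46.2% of its 31-base words with the overlapping gene Chtf18, so its level is uncertain too.

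No gene of the scaffold list was called in any comparison. The gene of highest mean in that list was Unc119, which encodes a photoreceptor lipid-binding protein, at 860 RPKM. Rims1, which encodes an active zone protein, was named after its values were seen because of its level in C57BL/6J 3. There it was at 21.2 RPKM, against 2.32 to 3.98 RPKM in the other 8 libraries. Its difference of A/J from C57BL/6J was -0.96 (SE 0.527, adjusted p = 0.329), the largest in size of the scaffold list. C57BL/6J 3 was thus high for Rims1 as it was for Stx3, Cacna1f, Pclo and Ctbp2.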

How the data were processed

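RNA of whole eyes was measured in 9 libraries, 3 per strain. The authors deposited 1 table per library with a gene symbol, a description and a value. The build mm9 and the tools CASAVA 1.7 and GenomeStudio are named per the submitters' processing notes. How reads were counted, with or without strand and on which gene models, is not given in the sources used here. No header states a unit, and the values that the authors deposited were read as RPKM because values times the length of each gene's longest coding transcript (GENCODE, 98.2% of genes matched) summed, in 8 libraries, to between 99.4% and 101.8% of what RPKM must give. Depth is unknown, so no counting interval is given.

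Libraries were scaled by the median of ratios (size factors of 0.931 to 1.158), and log2 was taken after adding 0.5. Genes with at least 1 RPKM in at least 3 libraries were tested (12920 of 13089). Strains were compared with limma 3.58.1 in R 4.3.3, with trended and robust variance estimation and all 9 libraries in a single fit. A call was an adjusted p under 0.05 (two-sided, adjusted by Benjamini-Hochberg over all genes tested). Means ± SD are of RPKM, and SEs and 95% intervals are from limma. The GC correction subtracted a lowess curve of each library's deviations on GC content. Scaling to rod markers used the listed rod genes as the reference.

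The members and lists were chosen with earlier results of these data known. All 10 members were named, with up to 3 genes of smallest adjusted p under 0.05 of each other list, or its gene of highest mean where none passed, and the 5 genes most like the members' mean profile with a mean of at least 2 RPKM. Rims1 was named after its values were seen. Alternatives were other scalings, pseudocounts of 0.1 and 1, no filter, plain variance estimation, only the strains compared, a replicate block, the GC correction and omission of libraries. The fit was also run on simulated data. Their noise was independent between genes, without shifts shared across a library, so they cannot show how calls behave in these libraries. Figures were drawn with Python 3.11.15. The reference is of another build than mm9, and its coordinates are given only with the promoter shown.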

Additional observations from a re-analysis of the deposited data

How the results depend on the processing

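The design has 3 libraries per strain of unknown depth, and whether the libraries of a strain are separate pools is not stated. No member was called under other scalings but the rod markers, other pseudocounts, no filter, plain variance estimation, only the strains compared, omission of A/J 1 and A/J 2, or the GC correction of all 9 libraries or with A/J 3 left out. Members called between A/J and C57BL/6J numbered 0 to 2 when 1 library was left out (2 without A/J 3, against 28.2% of all genes). They numbered 3 (Bsn, Cacna1f, Slc17a7) without A/J 3 and C57BL/6J 3, against 39.4% of all genes. With the GC correction as well they numbered 3 (Cacna1f, Slc17a7, Stx3), against 22.7%. Between A/J and BALB/c they numbered 1 (Syt1) with scaling to rod markers, against 15% of all genes. They numbered 0 to 4 when 1 library was left out (4 without A/J 3, against 34.6%). They numbered 5 without A/J 3 and C57BL/6J 3, against 60.2%, and 3 (Cacna1f, Ctbp2, Slc17a7) with the GC correction as well, against 39%. Over any strain they numbered 0 to 2 when 1 library was left out (2 without A/J 3, against 32.8%). They numbered 5 without A/J 3 and C57BL/6J 3, against 61.6%, and 4 with the GC correction as well, against 43.6%. Between BALB/c and C57BL/6J they were 0 throughout. The combinations of the GC correction with omissions were chosen after seeing the data; the cause of these changes was not tested.

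Genes called between A/J and C57BL/6J numbered 348, 141 with only these strains in the fit, 153 to 3630 when 1 library was left out (highest without A/J 3, lowest without A/J 1), 126 without A/J 1 and A/J 2, 5043 without A/J 3 and C57BL/6J 3, and 1277 and 2858 with the GC correction and A/J 3, or A/J 3 and C57BL/6J 3, left out. Between BALB/c and C57BL/6J they numbered 399, 149 to 630 (lowest without BALB/c 3, highest without A/J 3), 1877, and 756 and 2168. Between A/J and BALB/c they numbered 320, 1940 with scaling to rod markers, 79 to 4463 (lowest without BALB/c 3, highest without A/J 3), 69 without A/J 1 and A/J 2, 7700, and 1297 and 4902. Over any strain they numbered 578, 1131 with scaling to rod markers, 265 to 4232 (lowest without BALB/c 3, highest without A/J 3), 321, 7883, and 1814 and 5484. The omissions that moved a count by over 1.5 times were, for A/J against C57BL/6J, each A/J library, BALB/c 3, C57BL/6J 1 and C57BL/6J 2; for BALB/c against C57BL/6J, A/J 3, each BALB/c library and C57BL/6J 1; for A/J against BALB/c, each A/J library, each BALB/c library and C57BL/6J 3; and for any strain, each A/J library and each BALB/c library.

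Log2 differences that changed sign were all of members not called in the fit of all 9 libraries. In A/J against C57BL/6J they were Syt1 with the GC correction (-0.0486), Ctbp2 when 1 library was left out (-0.305 to 0.0288), Cabp4, Slc17a7 and Syt1 without A/J 1 and A/J 2 (0.0344, 0.15, -0.0643), Pclo without A/J 3 and C57BL/6J 3 (0.0175), and Ctbp2 and Syt1 with the GC correction and A/J 3 left out (0.0136, -0.0622) or both left out (0.176, -0.0858). In BALB/c against C57BL/6J they were Cabp4 and Slc17a7 as deposited (-0.0426, -0.0594), Slc17a7 after quantile normalization (-0.00157) and with scaling to rod markers (-0.0135), Slc17a7, Bsn and Cacna1f when 1 library was left out (-0.0698 to 0.234, -0.293 to 0.133, -0.435 to 0.0102), and Bsn and Cacna1f without A/J 3 and C57BL/6J 3 (0.134, 0.0105). In A/J against BALB/c they were Stx3 as deposited (0.00233), Cacna1f, Cacna2d4 and Stx3 with scaling to rod markers (0.00162, 0.146, 0.153), Pclo, Cacna2d4 and Unc13b with the GC correction (-0.0748, 0.0166, -0.0315), Ctbp2, Cacna2d4 and Stx3 when 1 library was left out (-0.0019 to 0.102, -0.181 to 0.0223, -0.13 to 0.0488), Bsn, Cacna1f, Cacna2d4 and Slc17a7 without A/J 1 and A/J 2 (0.0399, 0.164, 0.134, 0.0281), and Pclo and Unc13b with the GC correction and A/J 3 left out (-0.162, -0.202) or both left out (-0.168, -0.206). The cause of these changes was not tested. The median of all genes moved to -0.11 and -0.17 for A/J and BALB/c against C57BL/6J as deposited, and to 0.19 for A/J against BALB/c and -0.13 for BALB/c against C57BL/6J with scaling to rod markers.

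A block for the replicate number lost the call of Slc17a8 in A/J against C57BL/6J (adjusted p = 0.056), kept the other 7 calls of named list genes, and called 0 members and 406, 398, 373 and 604 genes in the 3 comparisons and over any strain. Whether the numbers pair the libraries is not stated. Correlations of deviations ran from -0.51 to 0.54 between libraries of the same number and from -0.67 to 0.6 between those of different numbers. Not every library correlated best with its own number. Deviations from a mean of 3 libraries depend on each other, so these values cannot settle the pairing.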
